A study of Mus musculus with 24 samples.

Results

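Tumours of mice given an antibody to CTLA-4 on top of entinostat and an antibody to PD-1 (ENT+PD1+CTLA4, titled 5, 6, A1 and A2) were set against tumours of mice given entinostat and anti-PD-1 alone (ENT+PD1, titled P1, P2, 5 and 6). These samples were chosen by their titles and are 8 of the 24 in the series. RNA was counted on an nCounter instrument, which reads colour-barcoded probes hybridised to single RNA molecules without amplification, and the table holds 770 mouse genes. Further arms place the comparison: ENT+CTLA4 and ENT with 4 tumours each, and 2 samples on another cartridge that also carry the titles ENT + PD1 P1 and P2, called the repeat-titled pair here.

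All groups shared the host and the background treatment. Female FVB-Neu-N mice, which are tolerant to the rat neu antigen, received NT2.5 cells, a line from a spontaneous mammary tumour, in the mammary fat pad at 7 to 8 weeks of age. Treatment began 3 days later and lasted 3 weeks. Entinostat was given by mouth every day at 5 mg/kg in 0.5% methylcellulose, and each antibody was given into the peritoneum at 100 µg per mouse, 2 times a week. The labels mention that the work in this model was run with and without anti-HER2, and the titles of the 8 tumours name no anti-HER2. The tumour is 1 transplanted line. Its source is given as whole tumour while the extraction protocol ends with isolation of immune cells, so which of these gave the RNA was not settled. The labels do not say whether the samples of a group are separate animals, so p-values measure the spread between these samples. In such RNA, fewer cells of a type and less RNA per cell cannot be told apart.

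CTLA-4 is an inhibitory receptor of T cells, most abundant on regulatory T cells, that competes with CD28 for the ligands CD80 and CD86 on antigen-presenting cells. PD-1 is another inhibitory receptor of activated T cells, and its ligand PD-L1, the product of Cd274, is made by tumour and myeloid cells. Entinostat inhibits class I histone deacetylases and is known in mouse tumours for its action on suppressive myeloid cells.

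The arms differed in cartridge, the set of 12 lanes that is processed together. The 4 ENT+PD1+CTLA4 tumours ran on the second of 2 cartridges and the 4 ENT+PD1 tumours on the first, so treatment and cartridge cannot be told apart in the direct comparison. The repeat-titled pair and ENT+CTLA4 ran on the second cartridge, and ENT on the first. Recovered counts over the genes were 377758 ± 62586 in ENT+PD1+CTLA4 and 392124 ± 67674 in ENT+PD1 (SD, n = 4 each, two-sided exact permutation p = 0.857). The 8 negative control probes, which have no target in the sample, averaged 5.34 ± 0.359 counts in ENT+PD1+CTLA4 and 9.78 ± 0.981 counts in ENT+PD1 (SD, n = 4 each, two-sided exact permutation p = 0.0286, the smallest that 4 against 4 allows). On the scale of the normalized signal they were 5.14 ± 0.685 in ENT+PD1+CTLA4, 10.2 ± 2.12 in ENT+PD1 and 5.03 ± 0.0682 in the repeat-titled pair (n = 2). The labelled tissue was checked by Epcam, an adhesion molecule of epithelial cells, whose signal lay between 4854 and 6927 in ENT+PD1+CTLA4 and between 3778 and 5967 in ENT+PD1. No pair of libraries within a group, and neither P1 nor P2 with the repeat-titled pair, agreed within counting noise. None of these was counted as a second deposit of another, and other pairs between groups were not compared. Whether the repeat-titled pair are the tumours P1 and P2 measured again, other tumours or samples with a wrong title was not settled, since a tumour measured again on another cartridge could also differ by more than counting noise. Each value against that pair rests on its titles.

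The gene that passed the test was Alas1, which encodes 5-aminolevulinate synthase, the first enzyme of heme synthesis, and which the panel uses as a housekeeping gene. RefSeq places it at chr9:106233455-106247954 in GRCm38.p6, on the minus strand. Its promoter is shown because it belongs to the single called gene. The capitals mark an exact match to GCGCA followed by TGCGC, the palindromic element of NRF1, a factor known for nuclear genes of mitochondrial function. The window runs from 250 bases before to 50 bases after the start of 1 of the 2 RefSeq entries (chr9:106247905-106248204, minus strand), and the match begins 29 bases after the start.

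Alas1: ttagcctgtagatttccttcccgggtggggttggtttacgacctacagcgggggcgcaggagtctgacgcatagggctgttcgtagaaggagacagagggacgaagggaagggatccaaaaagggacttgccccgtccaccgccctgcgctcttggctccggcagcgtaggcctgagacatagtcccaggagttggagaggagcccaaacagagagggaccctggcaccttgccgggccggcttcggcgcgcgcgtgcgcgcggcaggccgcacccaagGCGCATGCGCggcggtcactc

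Both strands were searched, and 264 of 27025 RefSeq mouse promoter windows of this length held the element (0.977%). The match describes the letters and does not show binding.

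Alas1 had 62.5, 60.6, 70.3 and 60.0 in the ENT+PD1+CTLA4 tumours 5, 6, A1 and A2, against 102, 89.0, 121 and 148 in the ENT+PD1 tumours P1, P2, 5 and 6 (normalized signal, the scale of all levels here, in this order of tumours). The groups did not overlap, and the spread was wider in ENT+PD1. On the log2(signal + 1) scale Alas1 fell by 0.83 ± 0.13 (SE, 95% interval −1.10 to −0.56), with an adjusted p of 0.00203 from limma with Benjamini-Hochberg adjustment over the 412 genes tested. It was the 1 gene called of 412, 0.243% of those tested. At an unadjusted p under 0.05 there were 34 genes (8.25%), of which 29 were lower (7.04%) and 5 higher (1.21%) in ENT+PD1+CTLA4.

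The mean of Alas1 in ENT+CTLA4 and ENT lay between those of these groups. It averaged 74.7 ± 5.97 in ENT+CTLA4 and 74.6 ± 2.58 in ENT (SD, n = 4 each), and the log2 difference between these arms, which also ran on different cartridges, was 0.00 ± 0.13. The repeat-titled pair had 77.2 and 87.1, above each of the 4 ENT+PD1+CTLA4 tumours and below each of the 4 first-cartridge ENT+PD1 tumours. Within the second cartridge the difference from that pair was −0.37 ± 0.16 (adjusted p = 0.714 by limma). A term for cartridge gave the same value, since it rests on that pair. The call was lost as well after rescaling each sample to a common median (−0.69, adjusted p = 0.0514 by limma), after quantile normalization (−0.61, adjusted p = 0.277) and when limma was fitted to the 8 compared tumours alone (adjusted p = 0.278). Since Alas1 is 1 of the 20 genes behind the scaling, each sample was also scaled on the other 19, which gave −0.87 and an adjusted p of 0.00169 by limma.

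**Figure D1:**
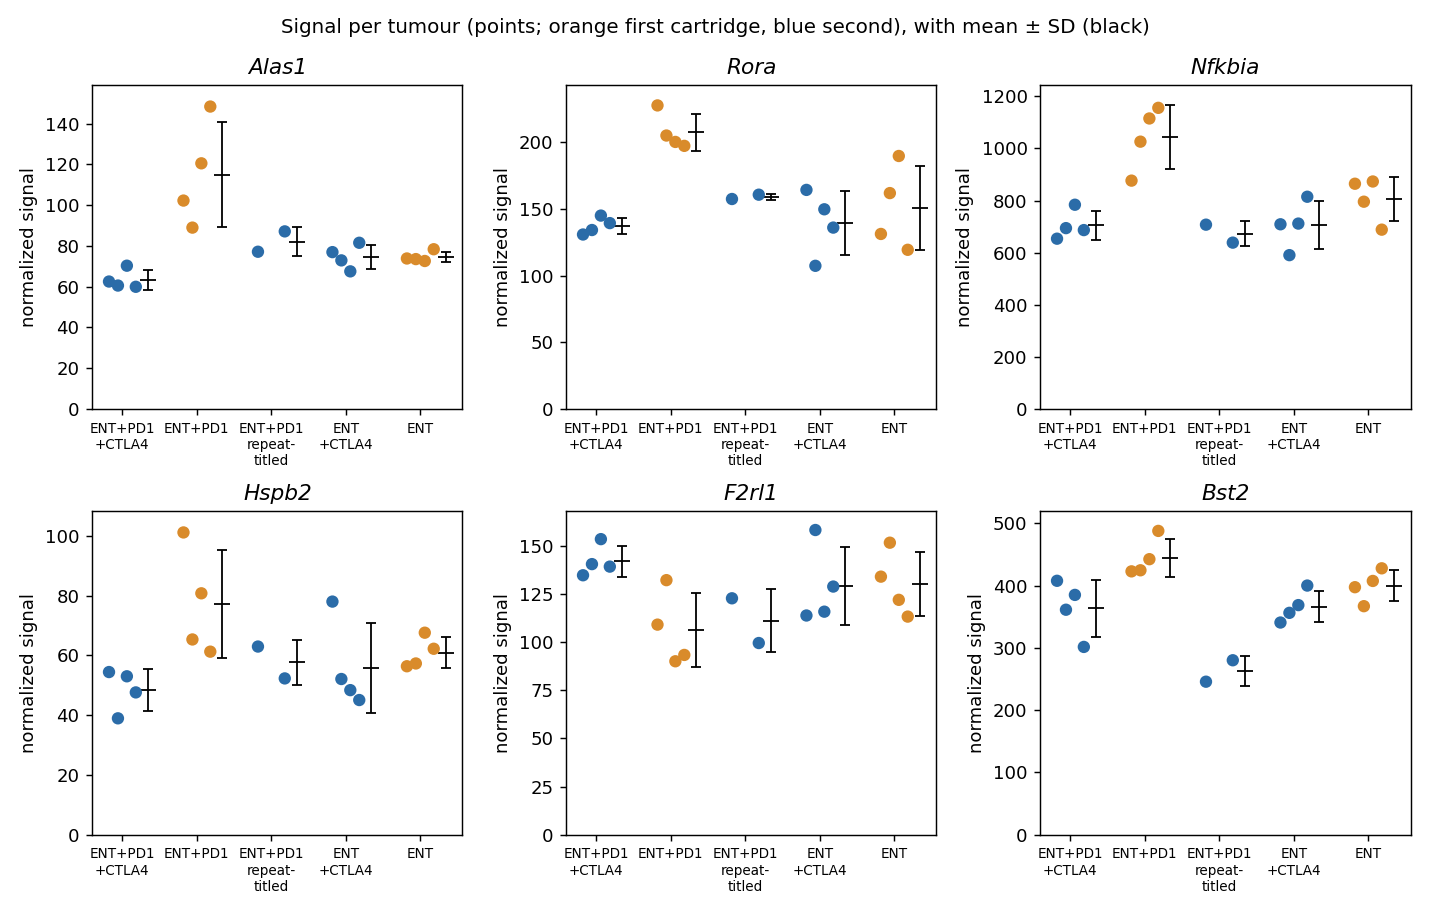
Normalized signal (y axis, linear) of 6 genes in each tumour of 5 groups (x axis), with points for tumours and marks for the group mean ± SD. Alas1 lies between 60.0 and 70.3 in ENT+PD1+CTLA4 and between 89.0 and 148 in first-cartridge ENT+PD1, with the repeat-titled pair at 77.2 and 87.1 between them.

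The 9 next genes by unadjusted p did not pass the test. Rora, a nuclear receptor of the circadian clock and of innate lymphoid cells, had 131, 134, 145 and 139 in ENT+PD1+CTLA4, against 227, 205, 200 and 197 in ENT+PD1. These groups did not overlap, and the repeat-titled pair lay between them at 157 and 161. The difference from ENT+PD1 was −0.59 ± 0.15 (adjusted p = 0.189 by limma), and from the repeat-titled pair −0.21 ± 0.18 (adjusted p = 0.714). Nfkbia, which encodes the inhibitor IκBα that holds NF-κB in the cytoplasm, had 654, 694, 784 and 687 in ENT+PD1+CTLA4, against 877, 1026, 1115 and 1156 in ENT+PD1. Its difference was −0.56 ± 0.15 across cartridges (adjusted p = 0.189 by limma). The repeat-titled pair, at 708 and 639, overlapped ENT+PD1+CTLA4 and lay below all 4 first-cartridge ENT+PD1 tumours (0.065 ± 0.18). Ifih1, the RNA sensor MDA5, had 56.8, 40.0, 51.9 and 56.4 in ENT+PD1+CTLA4, against 81.6, 58.0, 84.3 and 88.2 in ENT+PD1. Here too the pair lay with ENT+PD1+CTLA4, at 46.7 and 56.0.

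F2rl1, the protease-activated receptor PAR2, had the largest difference upward among the genes tested. It had 135, 141, 154 and 139 in ENT+PD1+CTLA4, against 109, 132, 90.1 and 93.4 in ENT+PD1, a difference of 0.43 ± 0.13 (adjusted p = 0.290 by limma). The groups did not overlap, and the repeat-titled pair, at 123 and 99.6, lay below all 4 ENT+PD1+CTLA4 tumours as well (0.36 ± 0.17, adjusted p = 0.714). The rest of the 10 were lower across cartridges, with adjusted p-values from 0.290 to 0.371 by limma. They were the small heat shock gene Hspb2 (−0.64 ± 0.19), the ubiquitin ligase gene Vhl (−0.41 ± 0.12), the interleukin 11 receptor gene Il11ra1 (−0.85 ± 0.27), the neutrophil chemokine gene Cxcl5 (−0.68 ± 0.23) and Ikbkg, the regulatory subunit of the IκB kinase (−0.48 ± 0.17). Against the repeat-titled pair these genes gave −0.25 for Hspb2, −0.15 for Vhl, 0.71 for Il11ra1, −0.52 for Cxcl5 and −0.29 for Ikbkg, none past the test.

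In 17 of the 412 genes (4.13%) the 4 ENT+PD1+CTLA4 and 4 ENT+PD1 tumours did not overlap, 15 of them lower (3.64%) and 2 higher (0.485%). The largest of these differences were those of Alas1, Cxcl5, Hspb2, Rora and Ifih1. The 2 higher ones were F2rl1 and Chuk, the gene of the IκB kinase subunit IKKα, which is named after its values were seen. Chuk had 342, 314, 315 and 336 in ENT+PD1+CTLA4, against 233, 298, 312 and 299 in ENT+PD1 (0.20 ± 0.10, adjusted p = 0.589 by limma). Of the 412 genes 0 were 2-fold or more higher in ENT+PD1+CTLA4, and 4 were 2-fold or more lower, none of them past the test. These 4, also named after their values were seen, were the chemokine genes Ccl11 (−1.05 ± 0.68), Ccl6 (−1.16 ± 0.89) and Ccl8 (−1.03 ± 1.02) and the protease inhibitor gene Serpinb2 (−1.81 ± 0.80). Single tumours lay far apart in them: Ccl8 had 1620, 758, 2178 and 27.3 in ENT+PD1+CTLA4, against 523, 501, 1262 and 3944 in ENT+PD1.

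More genes passed among the weak ones. The filter of 50 asked for that signal in at least 4 of the 8 compared tumours. A filter of 20 asked for 20 in at least 4 of the 22 samples in the fit, so other arms could also carry a gene past it. With it 20 of 619 genes passed (3.23%), all of them lower in ENT+PD1+CTLA4, and 17 of the 20 lay below the filter of 50. Being lower was common among weak genes. Of the 207 genes kept at 20 but not at 50, 186 were lower, with a median of −0.62. The median was −0.18 for genes kept at 50. In 18 of the 20 called genes the groups did not overlap, as they did not in 7.59% of all 619 genes with ENT+PD1+CTLA4 lower. By list, the calls were 3 of the 14 NK cell genes kept at 20 (Klrb1, Klra7 and Cd160), 3 of the 24 type I interferon response genes (Ifit1, Usp18 and Oas3), 1 of the 11 T cell activation and checkpoint receptor genes (Tigit) and 1 of the 20 suppressive myeloid genes (Nos2, the inducible nitric oxide synthase, which the interferon gamma list of 18 also holds). The lists of Toll-like receptors and innate signalling (31 kept), of NF-kB and the TNF family (24 kept) and of housekeeping genes (20 kept) had 1 call each. These counts are small and are given as a description. Apart from Klrb1 and Nos2, the weak genes are named because this filter called them. A gene could pass either filter through the 4 ENT+PD1 tumours alone, so the direction of these calls and of the counts at 50 is given with no reading.

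Klrb1, a C-type lectin receptor gene of NK cells, had 5.68, 6.49, 7.57 and 8.82 in ENT+PD1+CTLA4, against 27.6, 14.7, 33.9 and 24.9 in ENT+PD1. It passed with the filter of 20 (adjusted p = 0.00212 by limma), and the size of its fall was not measured, since 0 of the 4 ENT+PD1+CTLA4 tumours were above background. The fitted difference was −1.65, and −2.36 after background subtraction. It was above the negative controls, taken as the mean of the negative probes plus 2 SD in each sample, in 0 of 4 ENT+PD1+CTLA4 tumours and 3 of 4 ENT+PD1 tumours. The repeat-titled pair, at 12.2 and 9.96, was lower than each first-cartridge ENT+PD1 tumour. Nos2 had 21.1, 16.2, 20.6 and 15.0 in ENT+PD1+CTLA4, against 42.5, 31.8, 28.1 and 28.0 in ENT+PD1 (−0.80 ± 0.21, adjusted p = 0.0488 by limma with the filter of 20). It too was lower in the repeat-titled pair, at 22.3 and 21.2, than in each first-cartridge ENT+PD1 tumour.

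Ifit1, which encodes an interferon-induced protein that binds viral RNA, had 16.2, 22.7, 24.9 and 9.70 in ENT+PD1+CTLA4, against 48.3, 38.4, 38.6 and 34.3 in ENT+PD1. It fell by 1.15 ± 0.25 with the filter of 20 (adjusted p = 0.0153 by limma). The repeat-titled pair had 15.2 and 22.4, inside the range of ENT+PD1+CTLA4, and the difference from that pair was −0.09. Usp18, which removes the ubiquitin-like protein ISG15, had 12.2, 17.3, 18.4 and 10.6 in ENT+PD1+CTLA4, against 44.8, 32.7, 42.1 and 37.4 in ENT+PD1. The pair had 17.3 and 9.96, again below each first-cartridge ENT+PD1 tumour. The Ifit1 promoter is shown as that of a typical interferon target among these calls. RefSeq places the gene at chr19:34640889-34650009 in GRCm38.p6 and the window at chr19:34640639-34640938, plus strand. The capitals mark 2 matches to GAAA, 2 bases of any kind and GAAA, the core of the interferon-stimulated response element, read on the other strand, which begin 104 and 85 bases before the start.

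Ifit1: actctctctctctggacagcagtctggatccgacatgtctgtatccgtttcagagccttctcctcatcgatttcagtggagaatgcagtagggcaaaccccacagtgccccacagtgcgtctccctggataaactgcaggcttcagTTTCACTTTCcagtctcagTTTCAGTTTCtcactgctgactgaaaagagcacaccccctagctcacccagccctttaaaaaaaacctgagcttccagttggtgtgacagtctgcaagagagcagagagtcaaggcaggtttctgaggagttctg

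With both strands searched, 943 of the 27025 promoter windows held this core (3.49%). The match says nothing of binding in these tumours.

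Over the 412 genes kept at 50 the median log2 difference from first-cartridge ENT+PD1 was −0.18, and 312 were lower. Against the repeat-titled pair on the same cartridge the median was 0.14, and 263 were higher in ENT+PD1+CTLA4. The pair had no part in the filter of 50. A gene could pass that filter through the 4 ENT+PD1+CTLA4 tumours alone and be low in the pair. Directions against the pair, here and in the lists below, are therefore given with no reading. Both comparisons used the same 4 ENT+PD1+CTLA4 tumours. The 20 called genes had a median difference of −1.28 from ENT+PD1, the contrast that chose them, and of −0.13 from the repeat-titled pair. All 20 differed less in size from the pair, 14 overlapped it, and 2 of them, Alas1 and Sh2d1b1, were at an unadjusted p under 0.05 there. Of all 412 genes kept at 50, ENT+PD1+CTLA4 did not overlap the pair in 3.88% (higher) and 7.77% (lower). Of the 621 genes kept at 20 in that fit, 32 were at an unadjusted p under 0.05 by limma. After subtraction of each sample's mean negative control signal, 2 of the 20 passed, Klrb1 and Alas1. The negative controls moved with the groups as given above, and their part in these calls beyond that subtraction was not tested.

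**Figure D2:**
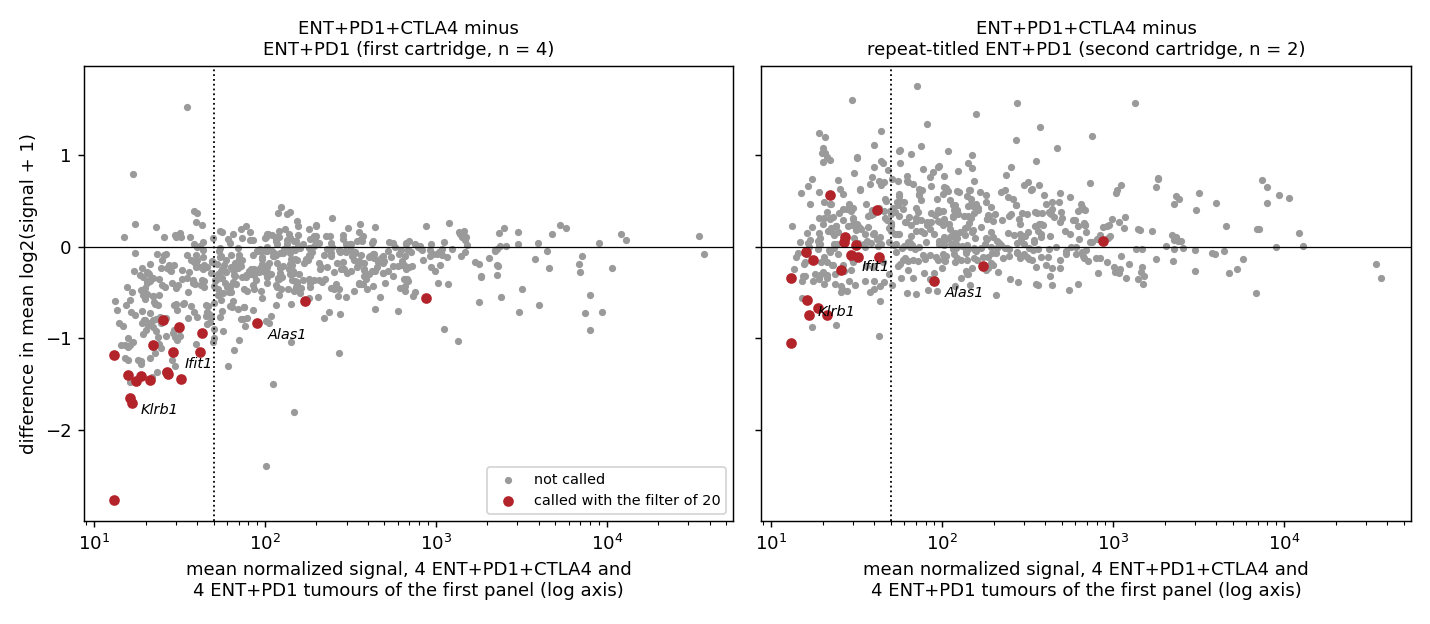
Difference in mean log2(signal + 1) (y axis) of ENT+PD1+CTLA4 from first-cartridge ENT+PD1 (left) and from the repeat-titled pair (right), against mean signal (log x axis), 1 point per gene; red points are the 20 genes called with the filter of 20 and the dotted line marks a signal of 50. The red points have a median of −1.28 on the left and of −0.13 on the right.

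The genes of the antibodies' targets and their ligands overlapped between the groups. Ctla4 had 15.4, 30.3, 112 and 14.1 in ENT+PD1+CTLA4, against 40.2, 11.4, 151 and 187 in ENT+PD1. Pdcd1, which encodes PD-1, had 7.31, 15.1, 19.5 and 10.6 in ENT+PD1+CTLA4, against 12.6, 4.08, 60.9 and 69.5 in ENT+PD1. Both genes were below the filter of 50. Ctla4 was tested with the filter of 20 and did not pass (−1.01 ± 0.74, adjusted p = 0.567 by limma, 95% interval −2.57 to 0.54). Cd274 was tested and had 48.7, 58.4, 68.1 and 32.6 in ENT+PD1+CTLA4, against 43.7, 48.2, 146 and 185 in ENT+PD1. The difference of −0.78 ± 0.44 did not pass (adjusted p = 0.729 by limma, 95% interval −1.70 to 0.14). The ENT+PD1 tumours 5 and 6 were the highest of the 8 for all 3 genes. Cd80 and Cd86, the ligands of CTLA-4 and CD28, gave −0.27 ± 0.50 and −0.38 ± 0.34 (adjusted p = 0.799 and 0.729 by limma). Cd28 itself, below the filter, had 23.6, 23.8, 61.7 and 30.9 in ENT+PD1+CTLA4, against 86.2, 30.2, 64.4 and 47.7 in ENT+PD1. Lag3, a further inhibitory receptor of T cells, gave −0.46 ± 0.26 (adjusted p = 0.729 by limma).

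Lymphocyte genes were low in most of these tumours and high in single ones. Cd3e, a subunit of the T cell receptor complex, had 9.74, 18.4, 155 and 8.82 in ENT+PD1+CTLA4, against 29.9, 9.80, 57.3 and 50.9 in ENT+PD1. Cd4 had 9.74, 14.1, 96.3 and 3.53 in ENT+PD1+CTLA4, against 8.04, 8.16, 32.8 and 52.9 in ENT+PD1. Cd8a had 6.50, 3.24, 51.9 and 3.53 in ENT+PD1+CTLA4, against 4.60, 2.45, 10.5 and 5.19 in ENT+PD1. The highest value of all 3 genes in the 8 tumours was that of ENT+PD1+CTLA4 A1, and the other 3 tumours of that group lay within the range of ENT+PD1 or below it. Icos, a costimulatory receptor of activated T cells, had 9.74, 33.5, 175 and 7.93 in ENT+PD1+CTLA4, against 21.8, 8.16, 150 and 202 in ENT+PD1. Foxp3, the defining factor of regulatory T cells, had 1.62, 11.9, 21.6 and 3.53 in ENT+PD1+CTLA4, against 6.89, 8.16, 22.2 and 41.5 in ENT+PD1, and 1 tumour of each group was above the negative controls.

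Effector genes of cytotoxic cells were near the negative controls. Gzmb, which encodes granzyme B, had 4.06, 4.33, 7.57 and 5.29 in ENT+PD1+CTLA4, against 8.04, 5.72, 19.9 and 9.34 in ENT+PD1, with 0 tumours above the negative controls in either group. Prf1, which encodes perforin, was above them in 1 ENT+PD1+CTLA4 tumour and 0 ENT+PD1 tumours. Ifng, the gene of interferon gamma, had 4.06, 8.65, 11.9 and 11.5 in ENT+PD1+CTLA4, against 18.4, 12.3, 26.9 and 20.8 in ENT+PD1. The groups did not overlap, but it was above the negative controls in 1 ENT+PD1+CTLA4 tumour and 2 ENT+PD1 tumours. Of the NK receptor genes, Ncr1 had 10.6, 18.4, 24.9 and 9.70 in ENT+PD1+CTLA4, against 12.6, 11.4, 11.7 and 20.8 in ENT+PD1, and the groups overlapped. Klrk1, which encodes NKG2D, had 8.93, 11.9, 17.3 and 11.5 in ENT+PD1+CTLA4, against 20.7, 13.9, 37.5 and 32.2 in ENT+PD1. Its values in the repeat-titled pair, 11.2 and 12.5, lay within the range of ENT+PD1+CTLA4. Cxcl9, an interferon gamma target that attracts T cells, had at most 20.6 in ENT+PD1+CTLA4 and at most 36.3 in ENT+PD1. Of the 22 NK cell genes on the panel 0 passed the filter of 50, as did 1 each of the 16 T cell receptor genes, 9 regulatory T cell genes and 11 cytotoxic effector genes, so these lists were not summarised.

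**Figure D3:**
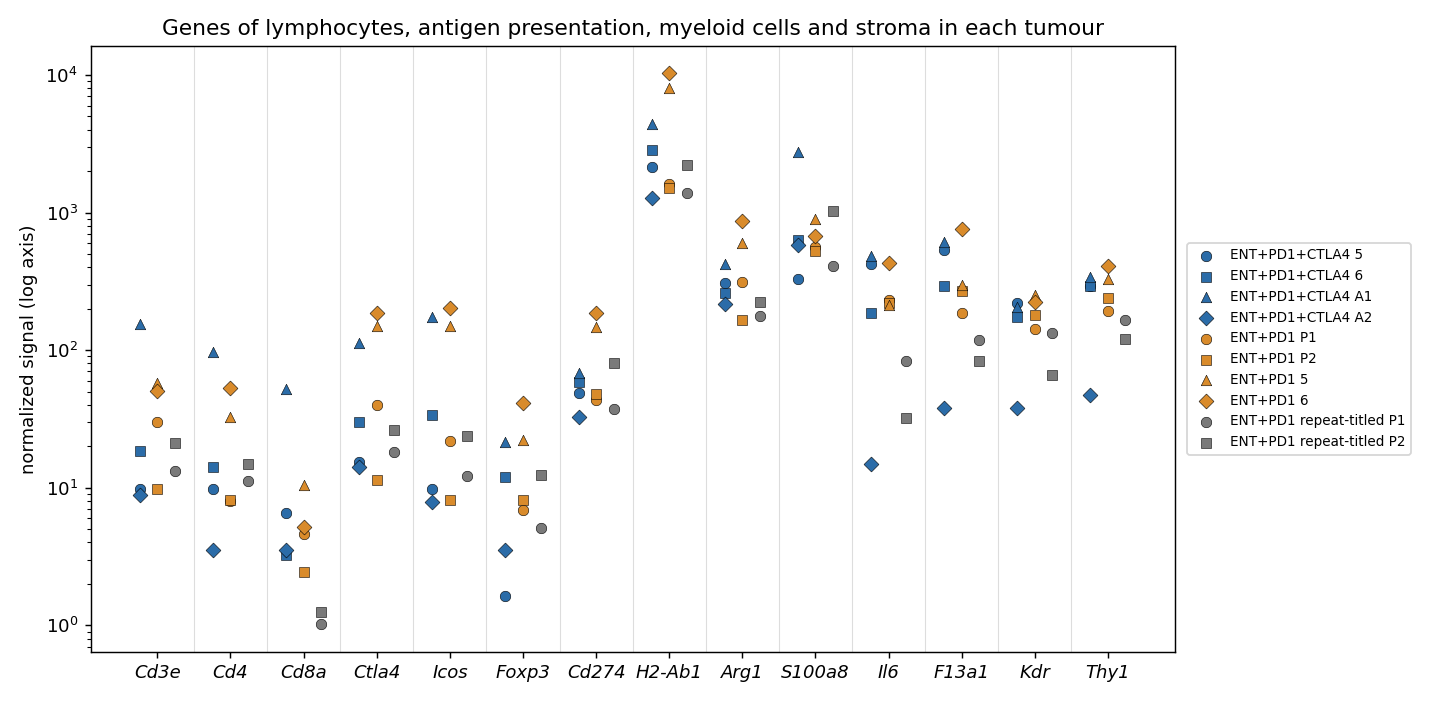
Normalized signal (log y axis) of 14 genes of lymphocytes, antigen presentation, myeloid cells and stroma in each ENT+PD1+CTLA4 tumour, each first-cartridge ENT+PD1 tumour and the repeat-titled pair. Cd3e, Cd4 and Cd8a are highest in ENT+PD1+CTLA4 A1 (155, 96.3 and 51.9), and Il6 and F13a1 are lowest in ENT+PD1+CTLA4 A2 (15.0 and 37.9).

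MHC class II genes were highest in the ENT+PD1 tumours 5 and 6. H2-Ab1, a chain of the MHC class II molecule I-A, had 2137, 2860, 4429 and 1282 in ENT+PD1+CTLA4, against 1625, 1514, 7988 and 10264 in ENT+PD1. The difference was −0.63 ± 0.55 (adjusted p = 0.729 by limma), and the groups overlapped. All 5 MHC class II genes kept were lower than in ENT+PD1 (median −0.55) and all 5 were higher than in the repeat-titled pair (median 0.47), with 0 called in either comparison. The first median was −0.15 without ENT+PD1 6, −0.27 without ENT+PD1 5, −0.33 without ENT+PD1+CTLA4 A2, −0.85 without ENT+PD1+CTLA4 A1, −0.96 without ENT+PD1 P2 and −1.01 without ENT+PD1 P1, so its size rested on single tumours. Over all 412 genes the medians were −0.18 and 0.14. Among the 11 MHC class I and peptide loading genes kept, 9 were lower than in ENT+PD1 (median −0.21) and 6 higher than in the pair (median 0.10). Neither direction held under both scalings: the medians were −0.07 and −0.04 after median rescaling, and 0.0038 and −0.15 after quantile normalization. Psmb9, a subunit of the immunoproteasome that cuts peptides for MHC class I, had 52.0, 47.6, 83.3 and 45.0 in ENT+PD1+CTLA4, against 83.9, 51.4, 98.3 and 138 in ENT+PD1 (−0.66 ± 0.25, adjusted p = 0.433 by limma). These groups overlapped, and the pair, at 51.8 and 46.1, lay within the range of ENT+PD1+CTLA4.

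In the lists of myeloid, vessel and matrix genes 0 members were called. Of the 20 macrophage and monocyte genes kept, 19 were lower than in ENT+PD1 (median −0.33) and 20 were higher than in the pair (median 0.49). Their mean log2 level was 8.38, 8.13, 8.54 and 7.17 in the ENT+PD1+CTLA4 tumours, against 7.63, 7.82, 8.82 and 9.26 in the ENT+PD1 tumours and 7.41 and 7.74 in the pair. The ENT+PD1 tumours P1 and P2 thus lay nearer to the pair than to the ENT+PD1 tumours 5 and 6, and without ENT+PD1 6 the first median was −0.04. Among them Fcgr2b, the inhibitory receptor for IgG, had 1588, 1179, 1855 and 578 in ENT+PD1+CTLA4, against 988, 841, 3044 and 4186 in ENT+PD1 (−0.60 ± 0.43, adjusted p = 0.729 by limma). Ccr2, the chemokine receptor of inflammatory monocytes, gave −0.82 ± 0.55. The 14 complement genes kept had medians of −0.41 against ENT+PD1 (13 lower) and 0.68 against the pair (14 higher). Of these Cfb, a protease of the alternative pathway, had 112, 76.8, 149 and 15.9 in ENT+PD1+CTLA4, against 67.8, 82.5, 138 and 225 in ENT+PD1 and 33.5 and 31.1 in the pair. The tumour A2 was the lowest of all 10 for Cfb. The 17 genes of monocyte, neutrophil and eosinophil chemokines and their receptors had medians of −0.43 (15 lower) and 0.54 (15 higher), the 12 endothelial genes −0.39 (12 lower) and 0.37 (11 higher), and the 11 stromal and matrix genes −0.39 (10 lower) and 0.13 (6 higher), each against ENT+PD1 and then against the pair.

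The neutrophil and epithelial lists had medians near 0 against ENT+PD1, and their sign turned with single tumours. Of the 10 neutrophil genes kept 5 were lower and 5 higher (median 0.02), and the median was −0.20 without ENT+PD1+CTLA4 A1, −0.02 without A2, −0.21 without ENT+PD1 P1 and −0.12 without ENT+PD1 P2. S100a8, a calcium-binding protein gene of neutrophils and suppressive myeloid cells, had 328, 629, 2776 and 578 in ENT+PD1+CTLA4, against 565, 523, 903 and 671 in ENT+PD1. Its single high tumour was again A1. Arg1, which encodes the arginine-degrading enzyme arginase 1, had 309, 260, 421 and 218 in ENT+PD1+CTLA4, against 311, 165, 600 and 862 in ENT+PD1 (−0.46 ± 0.41, adjusted p = 0.729 by limma). The 10 epithelial and tumour cell genes had medians of 0.08 against ENT+PD1 (−0.03 without ENT+PD1 6) and −0.31 against the pair, and Epcam gave 0.24 ± 0.15 and −0.24 ± 0.18. The 13 type I interferon response genes that passed the filter of 50 had a median of −0.08, with 8 lower and 5 higher. Hdac3, a class I histone deacetylase and so a target of entinostat, had 444, 474, 359 and 437 in ENT+PD1+CTLA4, against 492, 434, 404 and 345 in ENT+PD1 (0.04 ± 0.12).

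Over the 20 lists with at least 3 genes kept, the housekeeping list left aside, 18 had a median below 0 against first-cartridge ENT+PD1 and 18 a median above 0 against the repeat-titled pair. The first count was 15 after median rescaling and 12 after quantile normalization, where the median of all genes was −0.03 and 0.03. The count above 0 against the pair was 12 after median rescaling and 13 after quantile normalization, where the median of all genes was −0.00064 and −0.064. The first count was 13 without the tumour A2, whose endothelial marker sum (Pecam1, Cdh5 and Kdr) was 167, while the highest in ENT+PD1+CTLA4 was 1148. Without A2 the endothelial list had a median of 0.09 against ENT+PD1, the complement list 0.01, the stromal list 0.00 and the macrophage list −0.04. Without ENT+PD1 6 the complement list had −0.05, the list of monocyte, neutrophil and eosinophil chemokines −0.19 and the endothelial list −0.23, and 18 lists stayed below 0. First-cartridge ENT+PD1 was itself split, over the panel and in some lists. The chi-square per degree of freedom between recovered counts, larger for less alike samples, was 9.28 for P1 with P2. It was 18.1 for 5 with 6, and 82.6 to 154 for P1 or P2 with 5 or 6. For P1 or P2 with the repeat-titled pair it was 10.9 to 17.7, and 5 and 6 were not compared with the pair in this way. Mean log2 levels of the complement list were 7.78 and 7.89 in P1 and P2, 8.81 and 9.36 in 5 and 6, and 7.48 and 7.28 in the pair. The stromal list was less split, at 9.69 and 9.94, 9.94 and 10.2, and 9.43 and 9.32. The part of this split in the signs of the medians was not tested.

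**Figure D4:**
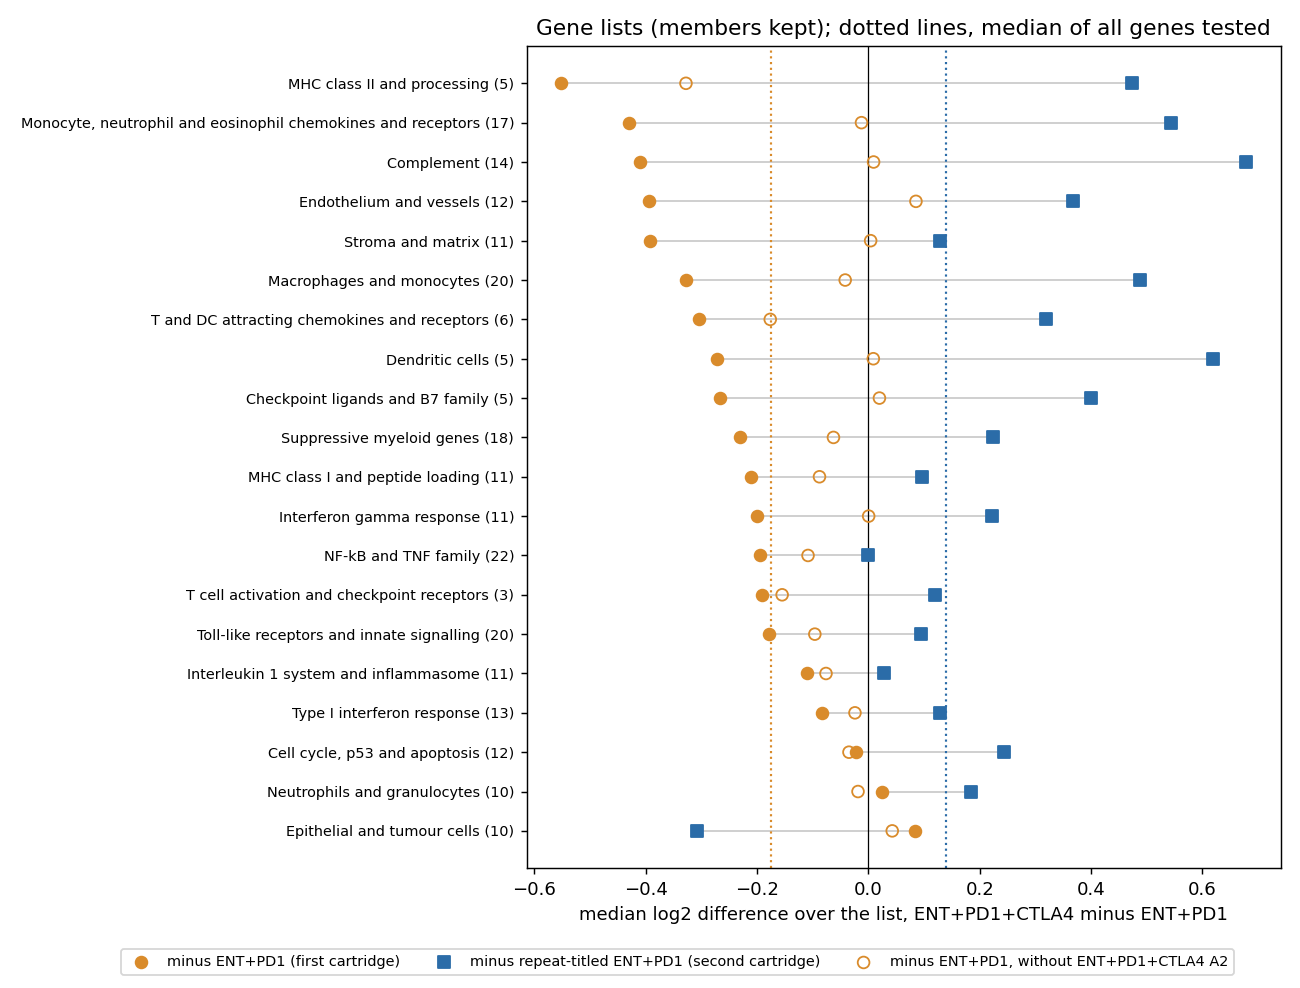
Median log2 difference over each gene list (x axis) of ENT+PD1+CTLA4 minus first-cartridge ENT+PD1 (filled orange), minus the repeat-titled pair (blue squares) and minus first-cartridge ENT+PD1 without tumour A2 (open orange), with dotted lines at the medians of all 412 genes (−0.18 and 0.14). In 18 of 20 lists the filled orange point is below 0, and in 18 of 20 the blue square is above 0, counts that were 15 and 12 after median rescaling.

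Within the second cartridge, ENT+PD1+CTLA4 was set against the repeat-titled pair in a fit over all 24 samples. By limma 0 of 412 genes passed (0%), with 23 at an unadjusted p under 0.05 (5.58%), 11 higher (2.67%) and 12 lower (2.91%). At the filter of 20, taken over these 24 samples, 0 of 621 genes passed (0%). The groups did not overlap in 16 genes that were higher (3.88%) and 32 that were lower (7.77%) in ENT+PD1+CTLA4. Bst2, which encodes the interferon-inducible membrane protein tetherin, had 408, 361, 385 and 302 in ENT+PD1+CTLA4, against 246 and 280 in the pair, and the groups did not overlap. The difference of 0.46 ± 0.13 did not pass (adjusted p = 0.500 by limma), and first-cartridge ENT+PD1, at 423 to 488, was above both. Smad3, a transducer of TGF-β signals, had 211, 186, 198 and 240 in ENT+PD1+CTLA4, against 297 and 302 in the pair (−0.53 ± 0.15, adjusted p = 0.500 by limma). First-cartridge ENT+PD1, at 187 to 234, lay in the range of ENT+PD1+CTLA4 for this gene. Igf2r, a receptor that clears insulin-like growth factor 2, gave −0.42 ± 0.13 against the pair, and Irf3, a factor that induces interferon genes, gave 0.37 ± 0.13 (adjusted p = 0.669 and 0.714 by limma).

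A single tumour decided this count. Without ENT+PD1+CTLA4 A2, 10 genes passed, 8 of them higher and 2 lower than in the pair. The higher ones were Il6 (2.67 ± 0.61), F13a1 (2.19 ± 0.57), Colec12 (1.66 ± 0.30), Fap (1.55 ± 0.36), Cxcl14 (1.18 ± 0.31), Nrp1 (0.77 ± 0.19), Mcam (0.74 ± 0.16) and Bst2 (0.55 ± 0.12), with adjusted p-values from 0.0107 to 0.0492 by limma. The lower ones were Igf2r and Smad3. Of the higher ones, Fap encodes fibroblast activation protein, Mcam the adhesion molecule CD146, and Il6 a cytokine. These genes were not read as marking 1 cell type. Without A2 the list medians against the pair were 0.21 for stroma and matrix and 0.91 for endothelium. They were 0.77 for macrophages and monocytes and 1.10 for complement. Il6 had 426, 185, 481 and 15.0 in ENT+PD1+CTLA4, against 83.2 and 32.4 in the pair, so A2 was below both samples of the pair and the other 3 tumours above both. In first-cartridge ENT+PD1 Il6 had 233, 219, 213 and 428, within the range of those 3 tumours. F13a1, Colec12, Fap, Cxcl14, Nrp1, Mcam, Igf2r and Smad3 also overlapped between first-cartridge ENT+PD1 and those 3 tumours. Fap, for example, ran from 65.5 to 148 in first-cartridge ENT+PD1 and from 75.7 to 134 in the 3 tumours. Bst2 was higher in first-cartridge ENT+PD1. Il6, F13a1, Colec12, Fap, Cxcl14, Nrp1 and Mcam are named here because they passed in this setting.

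The last comparison asked whether the effect of anti-CTLA-4 on entinostat differed with and without anti-PD-1, as ENT+PD1+CTLA4 minus ENT+PD1 less ENT+CTLA4 minus ENT. A constant shift between the cartridges on the log scale cancels in it. It does not cancel in either difference taken alone, each of which sets the second cartridge against the first. Where these are called effects, treatment and cartridge cannot be told apart in them. By limma 0 of 412 genes passed (0%), with 30 at an unadjusted p under 0.05 (7.28%), 26 of them negative (6.31%) and 4 positive (0.971%). On the recovered counts edgeR and DESeq2 called 0 as well, with 35 and 37 at an unadjusted p under 0.05. Alas1 had the smallest p (−0.83 ± 0.18, adjusted p = 0.109 by limma), its effect being −0.83 with anti-PD-1 and 0.00 without.

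Fcgr4, an activating receptor for IgG on myeloid cells, had 81.2, 83.3, 81.1 and 61.7 in ENT+PD1+CTLA4, against 51.7, 85.7, 124 and 120 in ENT+PD1. In ENT+CTLA4 it had 104, 96.9, 115 and 94.8, against 51.5, 46.4, 52.4 and 66.5 in ENT. The ENT+CTLA4 tumours were all above the ENT tumours, and the other pair of arms overlapped. The effects were −0.24 ± 0.24 with anti-PD-1 and 0.92 ± 0.24 without, and their difference of −1.16 ± 0.33 did not pass (adjusted p = 0.321 by limma). Irak2, a kinase of Toll-like and interleukin 1 receptor signalling, gave −0.37 ± 0.16 with anti-PD-1 and 0.47 ± 0.16 without (difference −0.84 ± 0.23, adjusted p = 0.321 by limma). Tgfbr1, a receptor for TGF-β, and Cxcl16, a chemokine that attracts CXCR6-bearing T cells, gave differences of −0.57 ± 0.17 and −0.71 ± 0.22 (adjusted p = 0.321 by limma for both).

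Arg2, the mitochondrial arginase, had 56.0, 99.5, 51.9 and 50.3 in ENT+PD1+CTLA4, against 60.9, 50.6, 117 and 103 in ENT+PD1. In ENT+CTLA4 it had 75.9, 36.5, 49.3 and 39.6, against 25.3, 26.3, 43.4 and 16.2 in ENT. Both pairs of arms overlapped, and the difference of effects was −1.19 ± 0.46 (adjusted p = 0.515 by limma). Ceacam1, an adhesion molecule of leukocytes and epithelium, gave −0.92 ± 0.32 (adjusted p = 0.515 by limma).

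**Figure D5:**
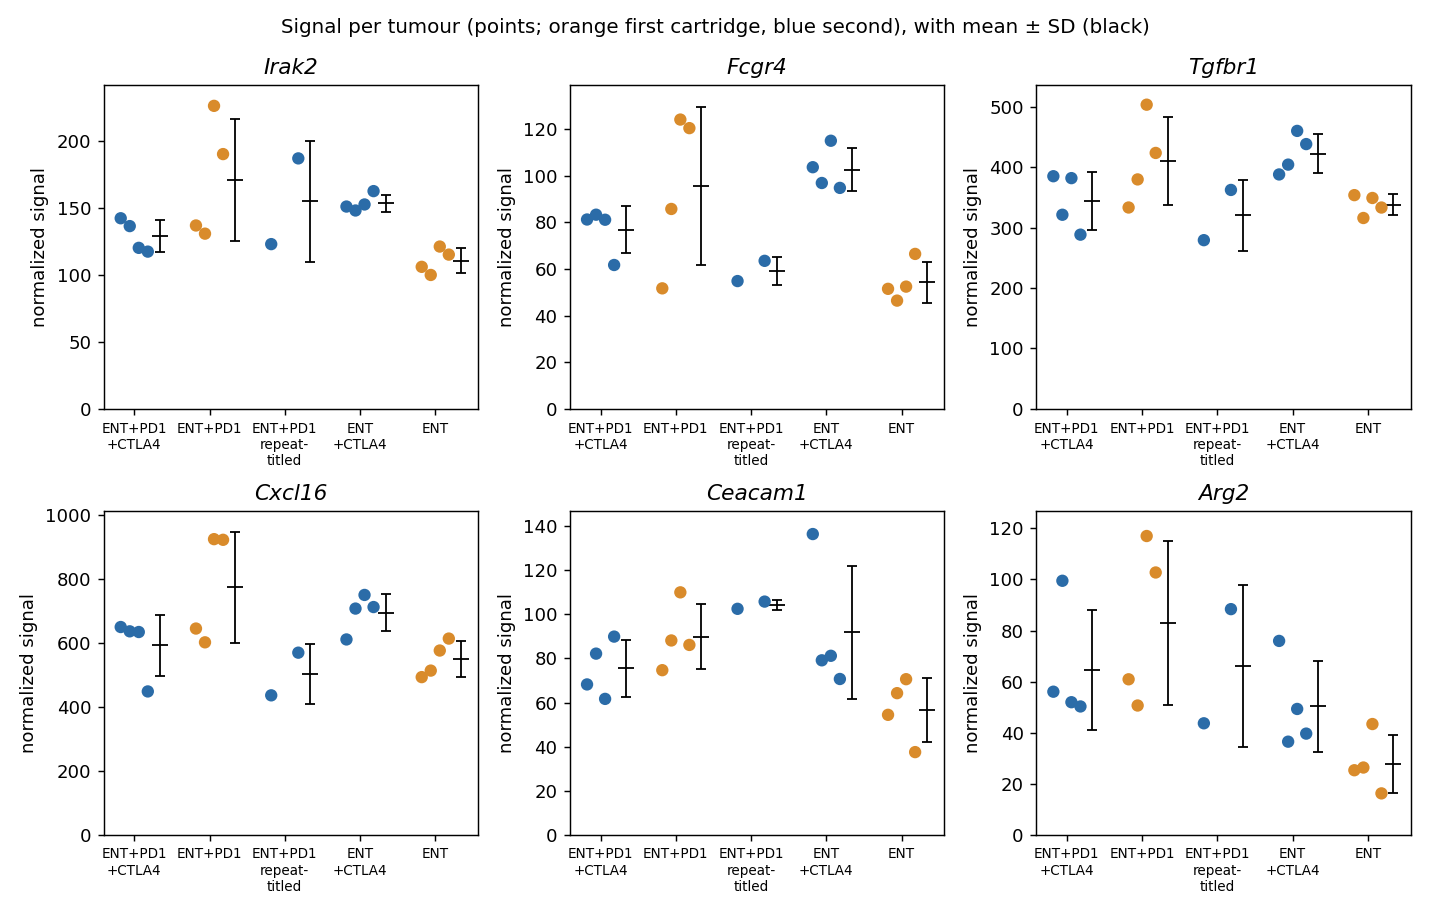
Normalized signal (y axis, linear) of 6 of the genes with the smallest p for the difference of the anti-CTLA-4 effect with and without anti-PD-1, in each tumour of 5 groups (x axis), with points for tumours and marks for the group mean ± SD. Fcgr4 averages 76.8 in ENT+PD1+CTLA4 and 95.5 in ENT+PD1, and 103 in ENT+CTLA4 and 54.2 in ENT.

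All 20 list medians were below 0 in this comparison, where the median of all 412 genes was −0.27. After median rescaling the median of all genes was 0.01 and 15 of the 20 lists were below 0, as were 15 after quantile normalization. The 5 MHC class II genes had a median of −1.22, and of −0.93 after either rescaling. The 20 macrophage and monocyte genes had −0.71 (18 negative), and −0.42 after either rescaling. The 10 neutrophil genes had −0.85 (10 negative), −0.57 after median rescaling and −0.50 after quantile normalization. For the neutrophil genes the median effect was 0.02 with anti-PD-1 and 0.71 without. In the latter 10 of 10 were higher in ENT+CTLA4 than in ENT, 7 of them at an unadjusted p under 0.05 and 0 called. Over all 412 genes 57 were at an unadjusted p under 0.05 by limma in that contrast, whose median was 0.08. Its arms ran on different cartridges. The difference of effects for S100a8 was −1.19 ± 0.77 (adjusted p = 0.552 by limma). No member of these lists was called. Single tumours changed the count of calls: without ENT+PD1 P2 Alas1 passed (−0.94, adjusted p = 0.0138 by limma), and without ENT+PD1 P1 Fcgr4 passed (−1.42, adjusted p = 0.0260 by limma).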

How the data were processed

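RNA of 24 mouse tumours was counted on a NanoString panel. The PanCancer Immune panel is named in the series title, and a myeloid panel in the protocol for labelling. How values were normalized is not given in the sources used here, and per the submitters' processing notes limma was used. The authors deposited a normalized signal per gene, which was read as counts scaled to the housekeeping genes: their geometric mean was 346.9 in every sample, and division by 1 factor per sample returned whole numbers for 100% of values (tolerance 0.05). A value of 1 (82 values) was taken as a floor. The control probes were deposited as counts. Recovered totals ranged from 226863 to 483418 counts.

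Groups came from titles. Genes with a signal of at least 50 in at least 4 of the 8 compared tumours (412 of 770) were tested as log2(signal + 1). The added 1 shrinks the log2 differences of weak genes. Background was not subtracted on this scale. Its subtraction moved differences of weak genes both ways, from −1.65 to −2.36 for Klrb1 and from −2.77 to −1.87 for Klra7. The test was that of limma 3.58.1 (lmFit, eBayes with trend) in R 4.3.3. The fit had 22 samples in 6 groups, and 24 samples in 7 groups for the repeat-titled pair. A Benjamini-Hochberg adjusted p under 0.05 over all genes tested was a call. edgeR 4.0.16 (quasi-likelihood) and DESeq2 1.42.0 were run on the recovered counts as alternatives, and quality measures were compared by exact permutation tests. Fits were tested on simulated data.

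Genes named were, for each comparison, the 10 largest called in each direction or, with fewer called, the 10 with the smallest p, up to 4 members of each list, a set of genes of the targeted pathways and cell types, and the 5 largest differences without overlap. The members and lists were chosen with earlier results of these data known. Replicate numbers were not used to pair the samples in the main fit. Deviations of same-numbered samples correlated at −0.592, 0.576, 0.0448 and 0.205, which cannot show whether such samples are paired. Accessions matched RefSeq (GRCm38.p6) for 746 of 770 genes. Alternatives were other filters, a pseudocount of 20, median and quantile scaling, the compared groups alone, cartridge and replicate blocks, and leaving out each tumour. Background subtraction and scaling without Alas1 were chosen after seeing the data. Some genes that the rule names are not reported here.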

Additional observations from a re-analysis of the deposited data

Results flagged for a closer look

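Single tumours stood apart from the other 3 of their group in 12 of 248 combinations of gene and group examined, by Dixon's test on the gap to the nearest neighbour. Chance gives about 1 in 20.

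In 4 genes ENT+PD1+CTLA4 A2 was the low one: Fcgr4 at 61.7 (the others 81.1 to 83.3), Cxcl16 at 449 (635 to 650), the stromal and T cell surface gene Thy1 at 47.6 (293 to 343), and the VEGF receptor gene Kdr at 37.9 (173 to 222). ENT+PD1+CTLA4 6 was high for Arg2 at 99.5 (50.3 to 56.0), and ENT+PD1+CTLA4 A1 was high for the inhibitory lymphocyte receptor gene Btla at 58.4 (45.0 to 46.5). In ENT+PD1, tumour 6 was low for the integrin gene Itgb4 at 788 (1141 to 1229) and for Casp1, the inflammasome caspase, at 202 (222 to 226). The same tumour was high for the signalling adaptor gene Bcl10 at 397 (267 to 284) and for Ncr1 at 20.8 (11.4 to 12.6). ENT+PD1 P1 was low for Chuk at 233 (298 to 312) and for the housekeeping gene Edc3 at 44.8 (52.9 to 53.8).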

How the results depend on the processing

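Against first-cartridge ENT+PD1, 1 gene was called. The count was 20 with the filter of 20, 17 with no filter, 2 with background subtraction and the filter of 20, and 0 by limma under median rescaling, quantile normalization, the compared groups alone, the cartridge block and the replicate block, where the counts at an unadjusted p under 0.05 were 16, 22, 15, 23 and 7. With the replicate number as a block Alas1 had an adjusted p of 0.900 by limma. The count was 1 with a pseudocount of 20, background subtraction, housekeeping scaling without Alas1, edgeR and DESeq2, and 1 to 1 over leaving out each tumour. The cartridge block counted the repeat-titled pair as ENT+PD1, the only group then on both cartridges, so it gave the difference from that pair again. Under it Nfkbia (0.0648) and Il11ra1 (0.71) turned positive. Against the repeat-titled pair the count of 0 ranged from 0 to 10 over leaving out each tumour, and the 10 came without ENT+PD1+CTLA4 A2. For the difference of effects it ranged from 0 to 1, with 1 without ENT+PD1 P1 or P2. Of the values of single genes, 201 of 210 kept direction and side of the threshold in the first comparison, 127 of 130 in the second and 258 of 260 in the third, and 86 of 105 list medians moved by less than their spread. The cause of these shifts was not tested. Weak genes are limited by their signal over the negative controls.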
